A study of Mus musculus with 4 samples.

Results

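The HoxD cluster is a run of homeobox genes on mouse chromosome 2 with Evx2, a related homeobox gene, at its posterior end. Every CTCF or RAD21 peak was taken from 7991 bp beyond the 3′ end of Evx2 to 4858 bp beyond Hoxd1 on chromosome 2 of mm10, an interval of 125001 bp that holds Evx2, Hoxd13, Hoxd12, Hoxd11, Hoxd10, Hoxd9, Hoxd8, Hoxd4, Hoxd3 and Hoxd1. It contained 30 peaks of 5 lists, which merged into 10 distinct sites out of 33127 in the genome. Peaks were joined where they shared at least 1 bp, and each site was assigned to the gene or the gap between genes in which it lay. Within the interval, peaks were taken by position only, whereas the interval itself was chosen with earlier results of these data known.

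CTCF and RAD21 were profiled by ChIPmentation, in which adapters are added by a transposase to chromatin still bound to the antibody beads. The limbs came from E12.5 embryos of the B6CBAF1 strain, TgN(38-40)/Wt for the transgene and del(CS38-40)-/- at the native region, in 2 biological replicates for each antibody and with 4 whole limbs as starting material. These embryos carry a transgene with region CS38-40 on 1 chromosome 10 and lack that region on both copies of chromosome 2, so the HoxD cluster itself is intact while a sub-TAD border beyond its anterior end is missing. They were set against a single wild-type RAD21 ChIP-seq library from E12.5 whole limbs, made for an earlier study, so that genotype and assay cannot be told apart and no test between the genotypes was possible. No wild-type CTCF list was used. Every CTCF site below, and every site said to lack CTCF, is therefore judged by the TgN(38-40) lists, also where wild-type RAD21 is described. The TgN(38-40) line stems from 1 integration, and whole limbs mix proximal and distal cells. The tissue label cannot be checked from peaks, which hold no expression values.

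CTCF is a zinc finger protein that binds an asymmetric motif, and RAD21 is a subunit of the cohesin ring, which extrudes chromatin loops and is halted at CTCF. Loops form preferentially between CTCF motifs that point toward each other. In developing limbs the HoxD cluster lies between a pair of topological domains, the centromeric C-DOM beyond Evx2, which holds enhancers for digits, and the telomeric T-DOM beyond Hoxd1, which holds enhancers for the proximal limb.

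Of the 10 sites, 7 had a CTCF peak and 3 had RAD21 without CTCF. All 7 CTCF sites were called in both replicates, against 73.0% of the 28827 CTCF sites of the genome. RAD21 was found on 4 of the 7 CTCF sites. The sites stretched over Evx2 and the posterior and central genes, and the last of them lay in introns of Hoxd3 and Hoxd4. No peak of any list was found in the remaining 53630 bp of the interval, which include Hoxd1.

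**Figure D1:**
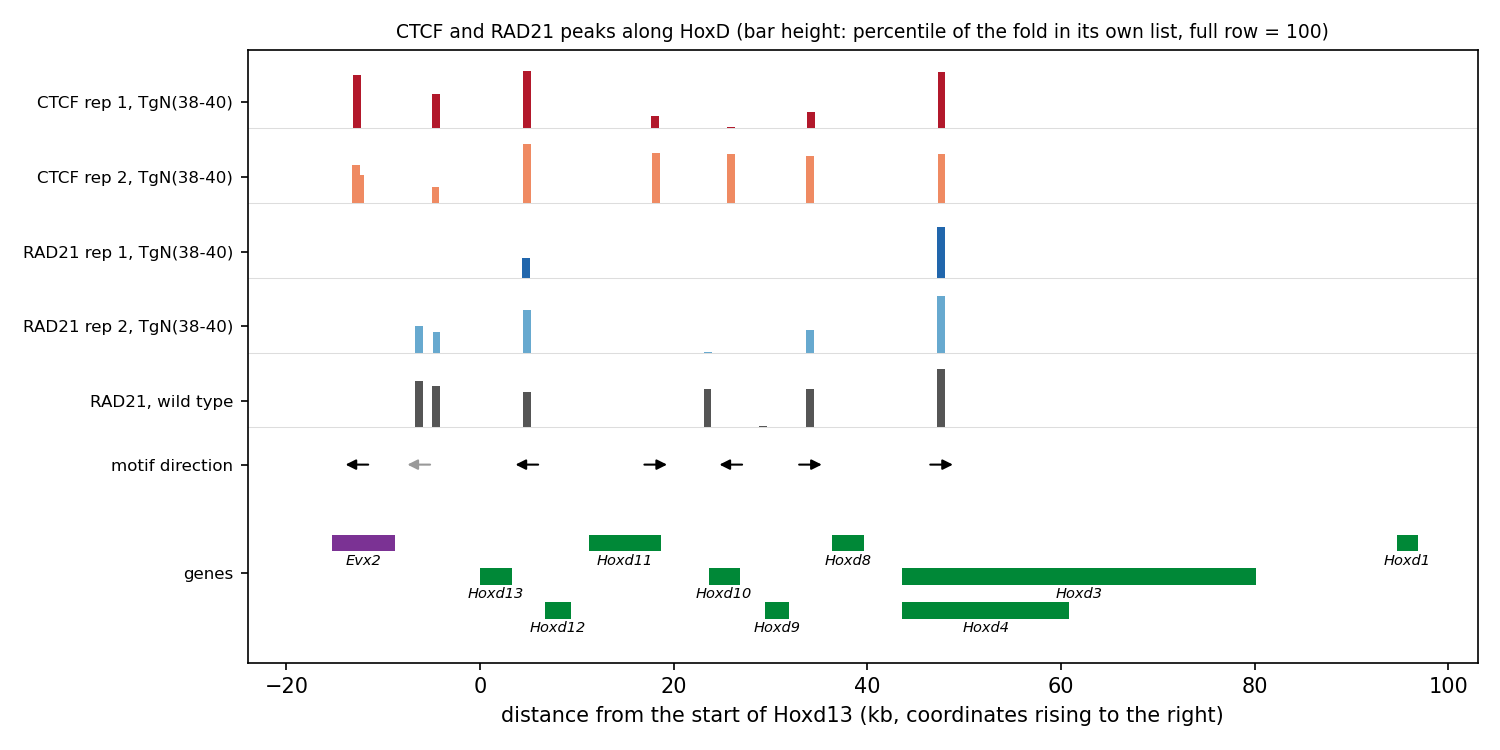
Peaks of the 5 lists along the HoxD cluster (horizontal axis, kb from the start of Hoxd13), with bar height giving the percentile of the fold within the list, arrows giving the direction of the best CTCF motif (grey at a site with RAD21 alone) and bars giving the GENCODE genes. The CTCF sites at Evx2 and between Hoxd13 and Hoxd12 point left, the last pair on the right points right, and no peak lies right of the Hoxd3/Hoxd4 intron site.

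A CTCF motif was present near the summit at 6 of the 7 CTCF sites, and 79.6% of all CTCF sites of the genome held one. A motif was counted when its centre lay within 50 bp of a summit and its score was one that 5% of flanking sequences reached. The matches and 5 bases on either side are shown from GRCm38, 5′ to 3′ on the strand of the motif, because their direction along the cluster is what the comparison of sites turns on. Capitals mark the 19 bp of the motif, whose consensus in strong CTCF peaks elsewhere in the genome was TGGCCACCAGGGGGCGCTA.
Evx2, motif 1, minus strand, chr2:74655518-74655546: tcctgCTGCCGCTAGGGGGCGCCCcgggg
Evx2, motif 2, minus strand, chr2:74655587-74655615: ctacgCCGCCGCCAGGGGCCGCGCcagcc
Evx2, motif 3, plus strand, chr2:74655882-74655910: ccgagCTACCGCTGGGGGGCGCCCcagcc
Evx2 upstream, RAD21 alone, minus strand, chr2:74661992-74662020: cgaggAAAACAGATGGGGGCGCCAaatga
Hoxd13-Hoxd12, minus strand, chr2:74673169-74673197: ccaaaCGCCCAGGAGATGGCGAGCgtgct
Hoxd11, plus strand, chr2:74686472-74686500: ttctaCAGCCACACGAGGGCGCGCtcatg
Hoxd10 exon, minus strand, chr2:74694220-74694248: cttacTGATCTCTAGGCGGCGCTCgcggg
Hoxd9-Hoxd8, plus strand, chr2:74702387-74702415: gcattTGGCCACTAGAGAGCGCTGttgct
Hoxd3/Hoxd4 intron, plus strand, chr2:74715913-74715941: agcttTGTCCAGGAGGAGGCGCTGtagga

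The Hoxd9-Hoxd8 motif matched the consensus at 15 of 19 bases, the Hoxd3/Hoxd4 intron motif at 14 and the Hoxd13-Hoxd12 motif at 10. By score, the first Evx2 motif was the highest of the cluster, at 21.9, and 92.9% of the CTCF sites of the genome had a best match at or below it. The Hoxd9-Hoxd8 motif followed with 18.7 and the 72.5 percentile. The other 2 motifs at Evx2 scored 16.5 and 15.0, at the 54.4 and 43.7 percentiles. The best motifs of the other CTCF sites scored 15.3 at the Hoxd3/Hoxd4 intron, 14.7 at Hoxd11, 11.9 between Hoxd13 and Hoxd12 and 11.8 at Hoxd10. These 4 best motifs lay below the median of the genome, at the 46.1, 42.1, 29.6 and 29.3 percentiles.

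Read from Evx2 toward Hoxd1, the best motifs of the 6 sites lay on the minus, minus, plus, minus, plus and plus strands. A minus strand motif points to lower coordinates, toward Evx2 and the C-DOM, and a plus strand motif points to Hoxd1 and the T-DOM. Thus 3 best motifs pointed each way, where 50.0% of the motif-bearing CTCF sites of the genome had theirs on the plus strand. The third Evx2 motif, on the plus strand with a score of 16.5, is not in this count. With CTCF replicate 1 left out, 8 CTCF sites were counted, 4 with a plus strand and 3 with a minus strand motif. Without CTCF replicate 2 the plus strand count was 1, at the Hoxd3/Hoxd4 intron, because the Hoxd11 and Hoxd9-Hoxd8 motifs were centred 76 and 54 bp from the summits of replicate 1. Among the best motifs the order was broken by the Hoxd10 motif, which points left although the Hoxd11 motif before it points right. At the stricter score, which 1% of flanking sequences reached, 4 of the 7 sites had a motif, and 65.9% of all CTCF sites. The Hoxd13-Hoxd12 and Hoxd10 motifs dropped out there, and 1 minus strand motif, at Evx2, stood left of 3 plus strand motifs. The Hoxd13-Hoxd12 motif was centred 46 and 48 bp from the summits of CTCF replicates 1 and 2. It too was lost when the whole motif, rather than its centre, had to lie within 50 bp.

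At the posterior end, the Evx2 site spanned 74655362 to 74656060, within the last exon of the gene. Evx2 is transcribed from the minus strand and is expressed with the posterior Hoxd genes in digits. The first and second motifs lay in its 3′ UTR and the third, on the opposite strand, in its coding sequence. CTCF replicate 1 had 1 peak with a fold of 9.22, which ranked 2516 of 23829 peaks from the highest fold down. CTCF replicate 2 had a peak over the minus strand motifs with a fold of 8.78, ranked 9434 of 26264, and a second peak, with its summit at 74655943, of 7.41 and rank 14039. The site was therefore the only one of the 7 with more than 1 CTCF peak in a list, and it had no RAD21 peak in any list. Folds are the authors' MACS2 enrichment over the local expectation and can be compared only within a list.

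Between Evx2 and Hoxd13, the gene whose loss affects digits most, stood a pair of sites. The first, at 74661728 to 74662198, had RAD21 alone, with a fold of 6.88 in TgN(38-40) replicate 2, ranked 8303 of 14787, against 6.94 in the wild-type list, ranked 4660 of 20874. Its summit lay 458 bp beyond the start of predicted RefSeq transcripts of Evx2, at 74661520, and 2421 bp beyond the GENCODE start. A weak motif was present there, with a score of 10.7 at the 26.2 percentile. The second, at 74663505 to 74663936, had both proteins and was the CTCF site without a motif. The CTCF folds were 6.87 in replicate 1 and 6.16 in replicate 2, with ranks of 10241 and 18977. RAD21 had a fold of 6.34 in TgN(38-40) replicate 2, ranked 9670, against 6.03 in the wild-type list, ranked 6593.

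The Hoxd13-Hoxd12 site, at 74672958 to 74673407, was the highest CTCF peak of the cluster in both replicates on mm10. Its CTCF fold was 10.5 in replicate 1, ranked 904, and 17.3 in replicate 2, ranked 76 of 26264. It was one of the 2 sites found in all 5 lists. RAD21 had folds of 5.66 and 8.97 in TgN(38-40) replicates 1 and 2, with ranks of 2759 of 4102 and 4142 of 14787, against 5.18 and a rank of 8637 in the wild-type list. The site lay 1877 bp before the start of Hoxd12, which is the shortest distance from any CTCF site of the interval to a start of Evx2 or a Hoxd gene.

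Hoxd11, Hoxd10 and Hoxd9, which pattern the forearm and the digits together with their paralogues, lie in a stretch with 4 sites. The Hoxd11 site, at 74686280 to 74686672, fell in an exon of Hoxd11 outside its coding sequence and in an intron of the non-coding gene Gm28309. The CTCF folds were 5.19 in replicate 1 and 10.9 in replicate 2, with ranks of 18872 and 4244, and no list had RAD21. The Hoxd10 exon site, at 74694089 to 74694381, had its motif in the coding sequence, CTCF folds of 4.03 and 10.6 with ranks of 23288 and 4790, and likewise no RAD21. At both, the CTCF peak stood low in the list of replicate 1 and high in that of replicate 2.

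The other 2 sites of this stretch had RAD21 alone and lay at gene starts. The Hoxd10 start site, at 74691621 to 74691965, had its summit at -105 bp from the GENCODE start of the gene. RAD21 had a fold of 4.03 there in TgN(38-40) replicate 2, near the end of that list at rank 14703 of 14787, against 5.60 and rank 7626 of 20874 in the wild-type list. The Hoxd9 start site, at 74697451 to 74697700, had its summit at -168 bp from the gene start and lay in an exon of the antisense gene Gm28793. Only the wild-type list held it, at a fold of 2.24, ranked 20453. Neither start held a CTCF motif at its summits, whereas the Evx2 upstream site held one. Of the RAD21 sites of the genome without a CTCF peak, 51.2% held a motif. RAD21 without CTCF lay within 500 bp of a GENCODE start at 2 of the 3 sites, whereas 15.0% of the 4414 such sites of the genome did. None of the 7 CTCF sites was that near, and 5.89% of all CTCF sites were.

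The Hoxd10 promoter shows where such a peak lay. The 250 bases before the start of the curated RefSeq transcript of Hoxd10, at 74691891, are given from RefSeq (GRCm38.p6, plus strand, chr2:74691641-74691890), with the 141 bp of the TgN(38-40) replicate 2 RAD21 peak in capitals. The wild-type peak covered the whole stretch. A predicted RefSeq transcript of Hoxd10 starts further upstream, at 74684273, and the stretch lies within it.
Hoxd10 promoter: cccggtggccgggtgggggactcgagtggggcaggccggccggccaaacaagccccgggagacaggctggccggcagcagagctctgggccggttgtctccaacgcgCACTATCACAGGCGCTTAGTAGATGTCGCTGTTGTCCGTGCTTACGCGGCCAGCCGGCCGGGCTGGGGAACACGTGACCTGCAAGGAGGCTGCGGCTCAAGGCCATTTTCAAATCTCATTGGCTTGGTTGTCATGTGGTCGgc

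Toward the anterior end, the Hoxd9-Hoxd8 site, at 74702211 to 74702652, was intergenic and had both proteins. The CTCF folds were 5.55 in replicate 1 and 10.3 in replicate 2, with ranks of 17145 and 5344. RAD21 had a fold of 6.52 in TgN(38-40) replicate 2, ranked 9222, against 5.64 in the wild-type list, ranked 7505. It lay 2189 bp before Hoxd8.

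The Hoxd3/Hoxd4 intron site, at 74715711 to 74716370, carried the strongest RAD21 peak of the cluster in each RAD21 list. Hoxd4 and Hoxd3 are anterior genes that pattern the neck vertebrae and the hindbrain region. The site lay in introns of the long GENCODE transcripts of both, while RefSeq starts Hoxd4 beyond it at 74721978, and it overlapped an exon of the antisense gene Hoxd3os1. RAD21 had folds of 7.69 and 12.2 in TgN(38-40) replicates 1 and 2, with ranks of 607 of 4102 and 762 of 14787, against 10.3 and a rank of 454 of 20874 in the wild-type list. CTCF had folds of 10.2 and 10.6, with ranks of 1186 and 4807. It was the other site present in all 5 lists.

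**Figure D2:**
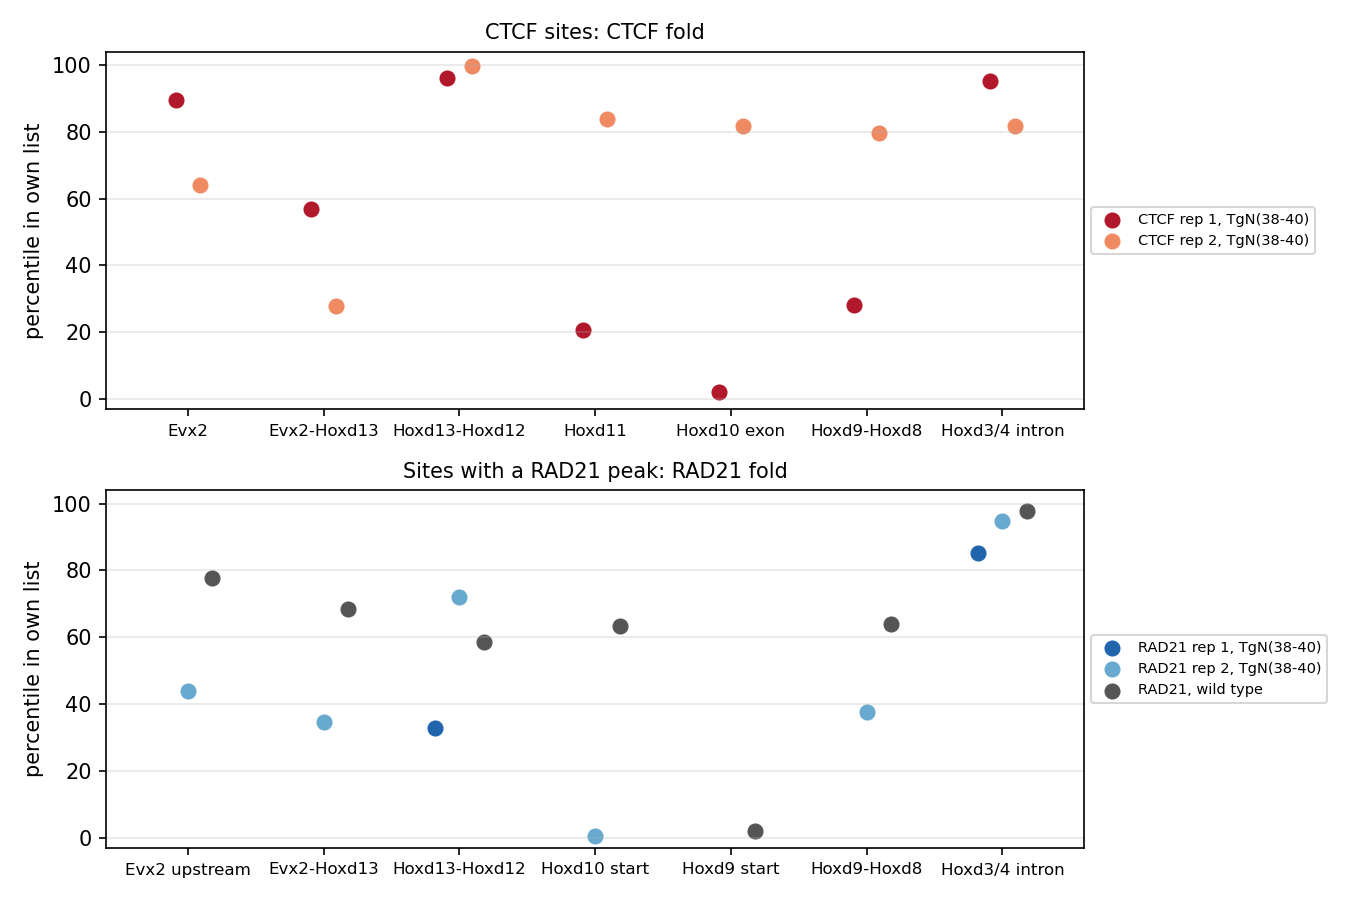
Percentile of the fold within its own list (vertical axis) at each site (horizontal axis, Evx2 side left), for CTCF in the upper panel and RAD21 in the lower, 1 point per list and the highest peak where a list had more than 1. The Hoxd13-Hoxd12 site leads for CTCF and the Hoxd3/Hoxd4 intron site for RAD21, and the CTCF points of Hoxd11, the Hoxd10 exon and Hoxd9-Hoxd8 lie far apart.

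The order of the CTCF sites by strength differed between the replicates. The percentile is the share of a list's peaks that do not exceed the fold of the site. The Hoxd13-Hoxd12 site stood at 96.2 in replicate 1 and 99.7 in replicate 2, or 98.0 ± 2.5 (SD, n = 2). The Hoxd3/Hoxd4 intron site averaged 88.4 ± 9.4 and the Evx2 site 76.8 ± 17.9. These 3 sites were the highest in replicate 1.

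In replicate 2, by contrast, the Hoxd11 and Hoxd10 exon sites came next after the Hoxd13-Hoxd12 site, with the Hoxd3/Hoxd4 intron site close behind at the 81.7 percentile. The Hoxd11 site stood at the 20.8 percentile in replicate 1 and at the 83.8 percentile in replicate 2. The Hoxd10 exon site stood at 2.27 and 81.8, and the Hoxd9-Hoxd8 site at 28.1 and 79.7. These neighbours thus all stood higher in replicate 2, by 63.0, 79.5 and 51.6 points. Among the 21043 CTCF sites shared by the replicates in the whole genome, 1.1%, 0.1% and 3.8% differed by at least as much, and the median difference was 15.0 points. The 4 sites around them differed by 3.5 to 29.3 points, and of all shared sites 22.2% to 85.3% differed by at least as much as these. Replicate 2 minus replicate 1 was -25.4 points at Evx2, -29.3 at Evx2-Hoxd13, -13.3 at the Hoxd3/Hoxd4 intron and 3.5 at Hoxd13-Hoxd12.

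The size of the difference depended on the measure. Ranked by q-value, the Hoxd10 exon site still differed by 66.3 points, which 0.5% of shared sites reached. Hoxd11 and Hoxd9-Hoxd8 differed by 34.7 and 34.0 points, reached by 12.8% and 13.8%. The central sites also had less GC around their summits, with 39.5% at Hoxd11, 45.2% at the Hoxd10 exon and 36.2% between Hoxd9 and Hoxd8 over 301 bp, against 49.5% to 74.8% at the other 4. Over 21021 shared sites of the genome the difference between replicates had a Pearson r of -0.02 with GC, a description across sites of the same libraries. The 7 HoxD sites had a median of 13 CpG dinucleotides in that stretch, and all CTCF sites of the genome had a median of 4.

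**Figure D3:**
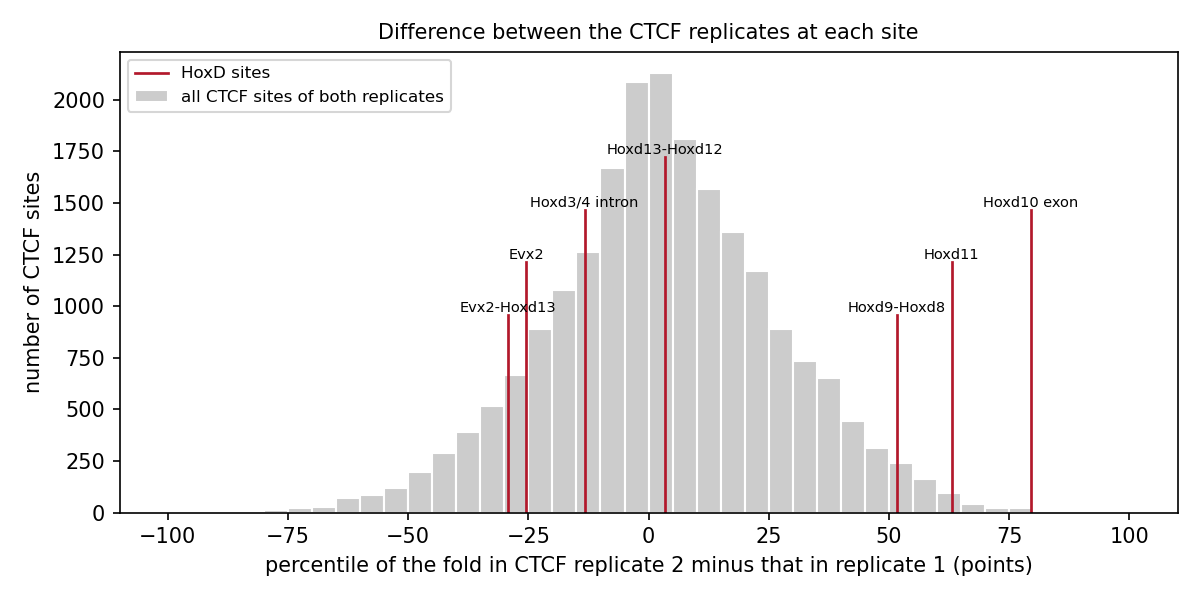
Percentile of the CTCF fold in replicate 2 minus that in replicate 1 (horizontal axis, points), with red lines for the 7 HoxD CTCF sites (line heights carry no value) and grey bars for the number of CTCF sites in bins of 5 points over all 21043 shared sites. Hoxd11, the Hoxd10 exon and Hoxd9-Hoxd8 lie between 51.6 and 79.5, in the right tail.

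RAD21 was present on the same 4 CTCF sites in TgN(38-40) replicate 2 and in wild-type limbs, where the CTCF sites are those of the TgN(38-40) lists in both cases. These were Evx2-Hoxd13, Hoxd13-Hoxd12, Hoxd9-Hoxd8 and the Hoxd3/Hoxd4 intron. They make 57.1% of the 7 CTCF sites, and of all CTCF sites 46.7% carried RAD21 in TgN(38-40) replicate 2, 58.7% in the wild-type list and 44.7% in both. In TgN(38-40) replicate 1, the shortest list, 2 sites or 28.6% carried RAD21, beside 13.5% of all CTCF sites. The 2 lists with more peaks gave the same call, present or absent, at each of the 7 sites, as they did at 83.9% of the CTCF sites of the genome. Of the 21043 CTCF sites called in both CTCF replicates, as all 7 were here, RAD21 was on 17.7% in TgN(38-40) replicate 1, on 56.8% in replicate 2 and on 69.2% by the wild-type list. The HoxD shares were therefore near those of the genome in both longer lists.

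The RAD21 peaks of the cluster were also read against CTCF. In TgN(38-40) replicate 1, 2 of 2 HoxD peaks were on a CTCF site, beside 95.5% of that list. It was 4 of 6 peaks for TgN(38-40) replicate 2, beside 91.1% of that list, and 4 of 7 for wild-type limbs, beside 80.7%. The peaks without CTCF belong to the Evx2 upstream, Hoxd10 start and Hoxd9 start sites. Of these 3 sites, 2 were in more than 1 RAD21 list, beside 23.4% of RAD21 sites without CTCF in the genome. With 2 to 7 peaks a list, these counts are a description.

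**Figure D4:**
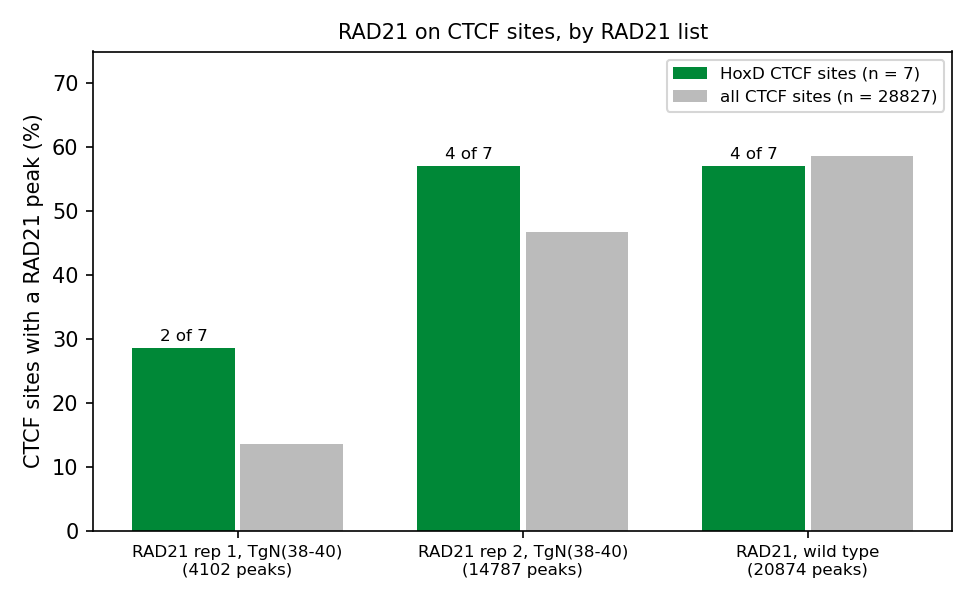
Share of CTCF sites with a RAD21 peak (vertical axis, percent) in each RAD21 list (horizontal axis), with green bars for the 7 HoxD CTCF sites and grey bars for all 28827 CTCF sites. In TgN(38-40) replicate 2 and in wild-type limbs 4 of 7 HoxD sites carry RAD21, and in the shorter list of TgN(38-40) replicate 1 it is 2 of 7.

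The sites with RAD21 were also read against CTCF height and motif score. The Hoxd13-Hoxd12 and Hoxd3/Hoxd4 intron sites, with the highest mean CTCF percentiles, were the ones with RAD21 in all 3 RAD21 lists. The Hoxd10 exon and Hoxd11 sites had no RAD21. Their CTCF folds were the lowest of replicate 1. In replicate 2, at 10.6 and 10.9, they came next after the Hoxd13-Hoxd12 site. The Hoxd3/Hoxd4 intron and Hoxd9-Hoxd8 sites, which carry RAD21, were close to them there, at 10.6 and 10.3. The low place of the Hoxd10 exon and Hoxd11 sites was thus seen in replicate 1 only. The Evx2 site, with the third highest mean CTCF percentile and the highest motif score, had no RAD21. The Evx2-Hoxd13 site had no motif and the lowest CTCF fold of replicate 2, though not of replicate 1, and carried RAD21 in 2 lists. In the genome, 51.2% of CTCF sites with a motif and 29.2% of those without carried RAD21 in TgN(38-40) replicate 2, beside 63.2% and 41.4% in the wild-type list.

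Within each list, the other RAD21 peaks were set against the one at the Hoxd3/Hoxd4 intron. The Hoxd13-Hoxd12 peak had 73.5% of its fold in each TgN(38-40) replicate, against 50.4% in the wild-type list. The Hoxd10 start peak had 33.0% in TgN(38-40) replicate 2, against 54.5% in the wild-type list. The Evx2 upstream peak had 56.4% in TgN(38-40) replicate 2 and 67.5% in wild-type limbs. Evx2-Hoxd13 had 52.0% in TgN(38-40) replicate 2 and 58.7% in wild-type limbs. Hoxd9-Hoxd8 had the smallest of these differences, with 53.5% in TgN(38-40) replicate 2 against 54.9% in the wild-type list. Hoxd13-Hoxd12 was second of 6 peaks in TgN(38-40) replicate 2 and sixth of 7 in the longer wild-type list, while TgN(38-40) replicate 1 had only 2 peaks in the cluster. With 2 replicates against 1 library an exact permutation test cannot go below p = 0.333, so these differences were not tested.

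Lists of equal length narrowed RAD21 to its strongest sites. Among the top 4102 peaks by q-value, TgN(38-40) replicate 2 kept 2 of the 7 CTCF sites, Hoxd13-Hoxd12 and the Hoxd3/Hoxd4 intron, the same as replicate 1, and the wild-type list kept the Hoxd3/Hoxd4 intron alone. Of all CTCF sites, 14.2% carried a top peak in each of these lists. The wild-type list also kept the Evx2 upstream site, which has no CTCF.

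The CTCF sites of the cluster were closely spaced and isolated from others. Neighbouring sites were 7416 to 13090 bp apart, with a median of 8511 bp, where the median for the genome was 32167 bp. Of 19692 autosomal windows of the same length, 2.13% held at least 7 CTCF sites, and the median window held 1. The next CTCF site to the left was 349333 bp away, between Atp5g3 and Lnpk, and had a minus strand motif that points away from HoxD. The next to the right was 248084 bp away, between Mtx2 and Hnrnpa3. Its minus strand motif, with a score of 20.8, points toward the cluster and faces the plus strand motifs at Hoxd11, Hoxd9-Hoxd8 and the Hoxd3/Hoxd4 intron. It carried RAD21 at a fold of 7.58 in TgN(38-40) replicate 2 and of 6.59 in the wild-type list, and TgN(38-40) replicate 1 had none there.

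Seen from the genes, Hoxd1 stood apart. Its start lay 47013 bp from the nearest CTCF summit, while the starts of the other 9 genes in GENCODE lay 1877 to 6421 bp from one. Hoxd1 is the most anterior gene of the cluster.

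The other Hox clusters, taken with the same flanks, held 7 CTCF sites in HoxA, 10 in HoxB and 3 in HoxC. Best motifs toward the posterior and the anterior genes numbered 3 and 3 in HoxD, 2 and 3 in HoxA, 6 and 2 in HoxB, and 0 and 3 in HoxC. In TgN(38-40) replicate 2, RAD21 was on 4 of 7 CTCF sites in HoxD, 3 of 7 in HoxA, 5 of 10 in HoxB and 3 of 3 in HoxC. In the wild-type list it was on 4 of 7 in HoxD, 6 of 7 in HoxA, 5 of 10 in HoxB and 3 of 3 in HoxC. With so few sites the clusters were not compared further.

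**Figure D5:**
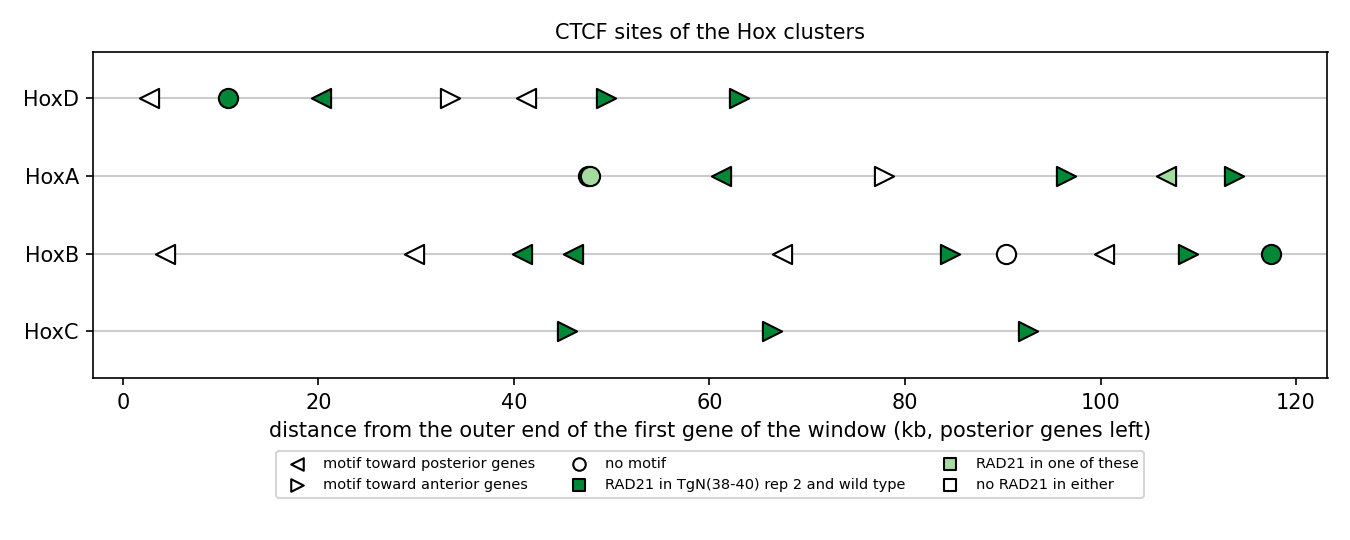
CTCF sites of the 4 Hox clusters (rows) by distance from the outer end of the first gene (horizontal axis, kb, posterior genes left), where arrowheads give the motif direction, circles mark sites without a motif, and fill marks RAD21 in TgN(38-40) replicate 2 and the wild-type list. HoxD has 3 best motifs in each direction, and its last pair points to the anterior genes and carries RAD21.

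On the custom genome, which lacks region CS38-40 on chromosome 2, the HoxD sites of the TgN(38-40) lists were found again. Each CTCF list had 8 peaks there, and the Evx2 site divided into a pair of peaks in both replicates, so that 8 CTCF sites were counted. RAD21 was on the same number of CTCF sites, 2 in replicate 1 and 4 in replicate 2. In CTCF replicate 1 the Hoxd3/Hoxd4 intron peak, with a fold of 10.36, stood narrowly above the Hoxd13-Hoxd12 peak, with 10.31. The Hoxd13-Hoxd12 peak stayed the highest in CTCF replicate 2.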

How the data were processed

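The deposited peak lists were made by the authors from single-end reads, mapped on mm10 or on a TgN(38-40) custom genome, and called with MACS2 at default parameters on each replicate. Tools in the submitters' processing notes include Bowtie2 2.3.4.1, cutadapt 1.16 and, for the peaks, MACS2 2.1.1.20160309. The authors' deposited values for a peak are its fold, a ratio over the local expectation, its −log10 p-value (the score used for ranks by p) and −log10 q-value, and the offset of its summit. No read counts were available here, so depth and counting error are unknown, and the control given to MACS2 is not given in the sources used here. A peak absent from a list is below the threshold in that library, not unbound. The 2 input samples, for which no peaks were given, were not analysed here. The wild-type list has no replicate and thus no error, and 0 columns of other samples were left out.

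Peaks were merged at 1 bp of overlap and ranked within lists, and positions are 1-based. Genes came from GENCODE M21 and RefSeq on GRCm38. The 19 bp motif model was learned from 2000 CTCF replicate 2 peaks, the strongest after 100, on autosomes other than 2 and 10, and its level set on 4000 sequences 1000 bp from summits. The motif search was tested on simulated data. Measuring to the motif's centre was chosen after its effect on the Hoxd13-Hoxd12 site was known. Every site of the interval is named, and from outside it the flanking CTCF sites and the other Hox clusters. The genes, the interval and the lists were chosen with earlier results of these data known. Alternatives were stricter q-values, other joining, the custom genome, ranks by p or q, leaving out replicates, equal list lengths and other motif settings. Python 3.11.15, numpy 2.4.6, pandas 2.3.3, pysam 0.24.0 and matplotlib 3.10.9 were used.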

Additional observations from a re-analysis of the deposited data

How the results depend on the processing

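At a −log10 q of at least 10, CTCF sites shared by both replicates numbered 3 rather than 7, and of the 6 CTCF sites left, 0 carried RAD21 in TgN(38-40) replicate 1, 2 did in replicate 2 and 3 did in wild-type limbs, beside 2.06%, 35.7% and 74.2% of all CTCF sites at that level. With RAD21 lists of equal length, RAD21 was on 2 CTCF sites in TgN(38-40) replicate 2 and on 1 in the wild-type list, since fewer peaks were used. At the 1% motif level 1 best motif was on the minus strand. Leaving out a CTCF replicate gave 1 to 4 plus strand motifs, with 1 without replicate 2, when Hoxd11 and Hoxd9-Hoxd8 were lost, where the motif was searched at the summits of the remaining replicate alone. The other 47 values kept within 1.5 times of those reported or within the spread between replicates. The median percentile of all HoxD peaks was 64.1 by fold and 62.8 by q-value. No paired analysis was possible because the labels give no replicate numbers that pair samples and no test was run.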
